A study of Homo sapiens with 6 samples.

Results

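The genes described are 10 markers by which venous and lymphatic endothelial cells are recognised. They are the venous transcription factors NR2F2 and NR2F1, the venous receptors EPHB4 and APLNR, the venous and capillary sialomucin EMCN, the lymphatic genes PROX1, LYVE1 and PDPN, and the sinusoidal scavenger receptors STAB1 and STAB2. They were listed by name, as known markers of these vessels with no threshold on a measured value, though with earlier results of these data known, and all 10 were found among the 56595 gene symbols of the deposited table, each on a single row. RNA was sequenced from differentiating cells of H1, an established human embryonic stem cell (hESC) line, at day 8 of a chemically defined hematopoietic differentiation. WT H1 cells gave 2 libraries and MSX2-/- H1 cells gave 4. The MSX2-/- cells carry a homozygous CRISPR/Cas9 deletion made with a guide in the second exon of MSX2, which encodes a homeobox transcription factor. Lentivirus delivered Cas9 and the guide, puromycin selected the infected cells, and 2 clones, 1# and 2#, were grown from single cells, so each clone is 1 line and has 2 libraries. The labels do not say whether WT cells went through infection and selection. They name CD31+ cells for the MSX2-/- libraries, whereas the methods name them for both genotypes. The growth protocol in the labels also speaks of HAND1 overexpression, which the methods do not mention, so parts of it may belong to other cells. The comparison asks how expression in the CD31+ cells differs once MSX2 is deleted.

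Venous, arterial and lymphatic endothelial cells share a common set of endothelial genes and differ in a smaller set of identity genes. In the embryo, NR2F2 holds venous identity by repressing NOTCH signaling, the pathway that drives arterial fate, and venous cells carry the receptor EPHB4 while arterial cells carry its ligand ephrin-B2. Lymphatic cells arise mostly from NR2F2-positive venous cells that switch on PROX1, and PROX1 and NR2F2 proteins can bind each other. Hemogenic endothelium, the CD31+ endothelium that turns into blood cells, is usually placed nearer to the arterial side.

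Expression is given as FPKM, fragments scaled to the length of the transcript and to the number of mapped fragments, so that levels can be compared between genes. The values of a library summed to between 555286 and 617120 FPKM, and between 13357 and 14208 genes reached 1 FPKM. Read numbers are not in the table, so the depth behind a value is unknown and no counting interval is given. Differences were tested with limma on log2(FPKM + 1), a scale that understates the change of genes near or below 1 FPKM, in the 15875 genes whose 6 libraries averaged 0.5 FPKM or more. An adjusted p under 0.05 was the threshold for calling a gene higher or lower. WT and both clones have a replicate 1 and a replicate 2, and the label descriptions give all replicate 1 libraries one letter and all replicate 2 libraries another without saying what the letters stand for. Libraries with the same number deviated together, so values from a second fit with the replicate number as a block are given wherever they change the call of a member. The methods speak of independent experiments for the study's analyses in general, in a number that is not that of these replicates, and no source used here says that the replicates of a line came from separate cultures, so the p-values measure the spread between these libraries, which may be technical.

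The targeted gene itself does not check the labels. MSX2 was at 3.64 and 1.44 FPKM in WT replicates 1 and 2, at 18.0 and 5.62 in those of 1#, and at 31.8 and 6.69 in those of 2#, higher in all 4 MSX2-/- libraries than in both WT libraries. Its log2 fold change of 1.99 (SE 0.69) was called with the replicate number in the fit (limma adjusted p = 0.0107) and not without it (0.309). The deletion lies inside the gene and mRNA from an edited allele can still be counted, so the level does not tell an edited from an intact gene. Why the level was higher in MSX2-/- libraries was not tested. Every library had the endothelial markers that the CD31+ gate calls for. PECAM1, which encodes CD31, was between 186 and 258 FPKM, and the 16 pan-endothelial markers summed to between 4120 and 4928 FPKM in WT and between 3008 and 4348 in MSX2-/-. PTPRC, which encodes the leukocyte antigen CD45, stayed at or below 0.115 FPKM. SPN, which encodes CD43, by which the paper counts blood progenitors at day 8, was between 6.19 and 17.4 FPKM. It was above both WT libraries in all 4 MSX2-/- libraries, and was called higher with the replicate number in the fit (limma adjusted p = 0.0281) and not without it (0.212).

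The 10 genes spanned levels from under 0.1 FPKM to 391 FPKM. In WT, APLNR, EPHB4 and STAB1 were all at 142 FPKM or more, EMCN and NR2F2 lay between 25.5 and 52.1, PROX1 was near 2, and LYVE1, NR2F1 and PDPN were near or below 1. STAB2 did not pass 0.0608 FPKM in any library and was not tested, which left 9 of the 10. The strongly expressed genes were thus the venous receptors and STAB1, and the lymphatic genes were low in both genotypes.

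**Figure D1:**
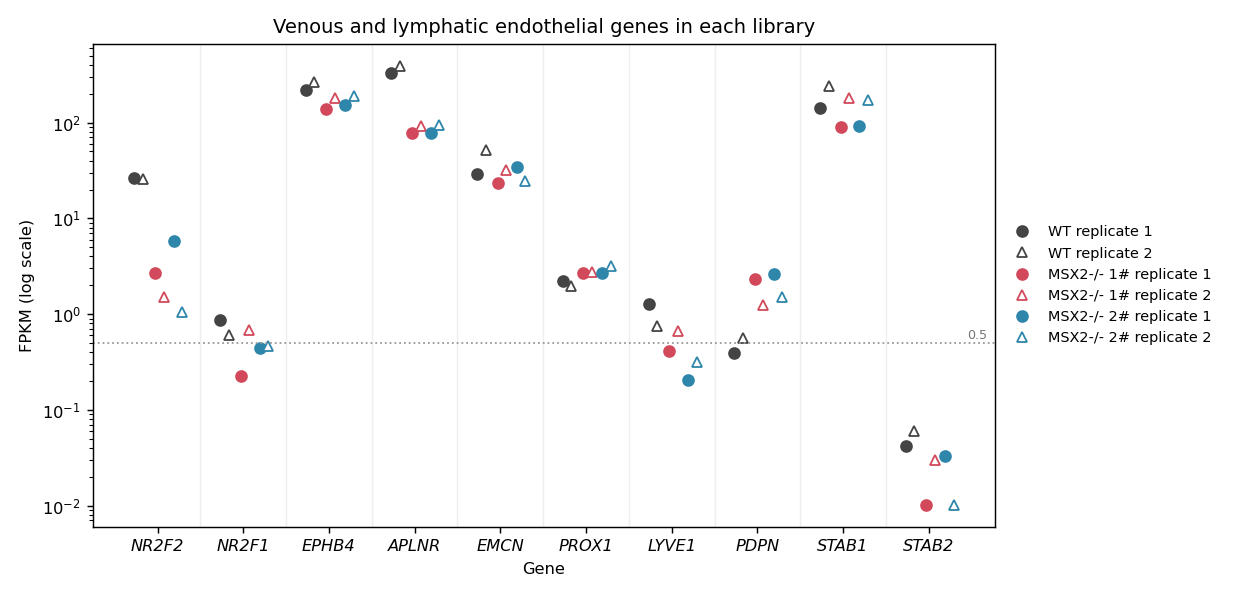
FPKM of the 10 venous and lymphatic genes in each of the 6 libraries, on a log scale, with circles for replicate 1, triangles for replicate 2, and a dotted line at the mean of 0.5 FPKM needed for testing. NR2F2 and APLNR have all 4 MSX2-/- libraries well below both WT libraries, PDPN has all 4 above, and STAB2 lies far below the line.

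Against WT, APLNR and NR2F2 were lower in MSX2-/- cells, and no member was called higher. These 2 are among the 51 of 15875 genes called lower, which is 0.321%, while 0.964% were called higher and 1.29% were called in either direction. With the replicate number in the fit, 5 of the 9 were called. NR2F2, EPHB4, APLNR and STAB1 were lower, where 3.77% of all genes were, and PDPN was higher, where 6.15% were, with 9.92% called in all. A negative log2 fold change was found for 7 of the 9, and the median of the 9 was -0.52, beside 0.01 over all genes tested. By level, 4 of the 9 (NR2F2, EPHB4, APLNR and LYVE1) had all MSX2-/- libraries below both WT libraries, as did 9.19% of all genes, and 2 of the 9 (PROX1 and PDPN) had all above, as did 12.1%. RNA was taken from bulk cells, so fewer cells of a type and less RNA per cell cannot be told apart in any of these values.

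**Figure D2:**
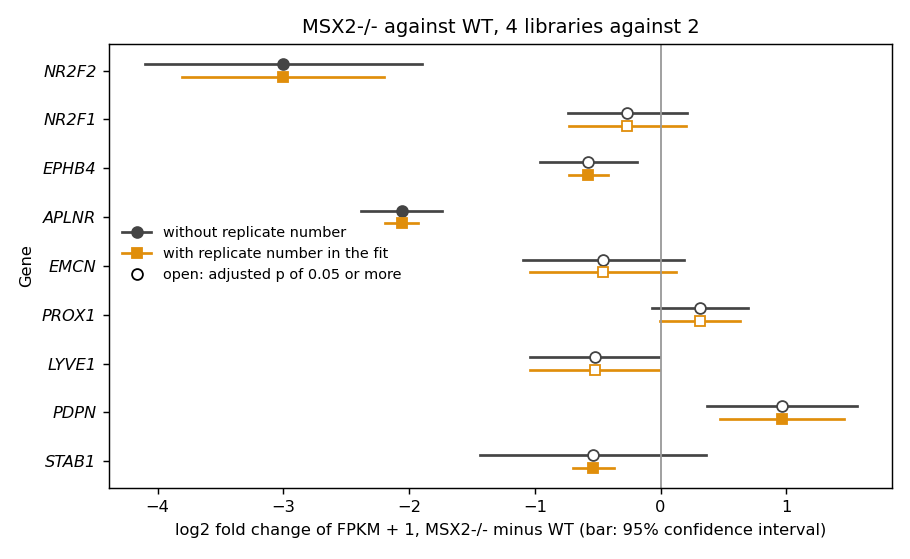
Log2 fold change of FPKM + 1 in MSX2-/- against WT for the 9 genes tested, with 95% confidence intervals, from the fit without (circles) and with (squares) the replicate number. Filled symbols have an adjusted p under 0.05: APLNR and NR2F2 in both fits, and EPHB4, STAB1 and PDPN only with the replicate number.

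NR2F2, also called COUP-TFII, is the nuclear receptor that holds venous identity. It was at 26.4 and 25.5 FPKM in WT replicates 1 and 2, at 2.66 and 1.5 in those of 1#, and at 5.78 and 1.06 in those of 2#. The WT libraries lay close together, all 4 MSX2-/- libraries were far below them, and within each clone replicate 2 was the lower. The mean was 25.9 ± 0.593 FPKM (SD, n = 2) in WT and 2.75 ± 2.13 (SD, n = 4) in MSX2-/-, a 9.42-fold lower level, and against the WT library of the same number the level was between 4.56-fold and 24.0-fold lower. On the log2 scale the change was -3.0 (SE 0.46, limma adjusted p = 0.0403). The call was lost when any library but 2# replicate 1 was left out, with adjusted p between 0.0941 and 0.277, and without the filter on low values (adjusted p = 0.119), while the log2 fold change stayed between -3.34 and -2.77. With the replicate number in the fit the adjusted p was 0.00498, but it was 0.0509 when the filter was also left out.

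In GRCh38, NR2F2 is on chromosome 15, plus strand, bases 96325938 to 96340263. This and all other gene positions given here were looked up by symbol in GENCODE 29, since the sources do not settle the build behind the table. The antisense gene NR2F2-AS1 overlaps it and was between 0 and 0.310 FPKM, and whether strand was used in counting is not stated.

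NR2F1, or COUP-TFI, is the close paralog of NR2F2 and is expressed in many tissues beside veins. Its FPKM was 0.874 and 0.605 in WT, 0.223 and 0.688 in 1#, and 0.442 and 0.465 in 2#. The groups overlapped, with 1# replicate 2 above WT replicate 2 and the other 3 MSX2-/- libraries below both WT libraries. The log2 fold change of -0.26 (SE 0.20) did not pass the test (limma adjusted p = 0.731) and had a 95% interval from -0.74 to 0.21. At this level the scale leaves little room for a fall, so the value cannot be set beside that of NR2F2. NR2F1 is on chromosome 5, plus strand, bases 93583224 to 93594615, and the antisense gene NR2F1-AS1 that overlaps it was higher than NR2F1 in every library, between 1.20 and 2.73 FPKM. At this level reads of the antisense gene could make up part of the NR2F1 value if strand was not used.

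NR2F2 and NR2F1 bind DNA in pairs with each other or with the retinoid X receptor RXRA, and NR2F6 is their nearest relative. NR2F6 was between 120 and 149 FPKM in the 6 libraries, far above both, and did not pass either fit (adjusted p = 0.831 and 0.390). RXRA had a log2 fold change of -0.44 (SE 0.21), and it was called lower with the replicate number in the fit (adjusted p = 0.0209) but not without it (0.491). The cofactor ZFPM2, which binds NR2F2, and the chromatin remodeler SMARCA4, which acts with it in venous endothelium, had log2 fold changes of -0.12 and -0.08 and were not called.

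APLNR, the G protein-coupled receptor for apelin, marks early mesoderm and later venous and sprouting endothelium. It was at 329 and 391 FPKM in WT, at 77.1 and 92.9 in 1#, and at 78.9 and 93.8 in 2#. All 4 MSX2-/- libraries were far below both WT libraries and the clones were nearly equal at the same replicate number. The mean fell from 360 ± 44.0 FPKM (SD, n = 2) to 85.7 ± 8.91 (SD, n = 4), 4.20-fold lower, and the pairs of the same number gave between 4.17-fold and 4.27-fold. On the log2 scale the difference was -2.06 (SE 0.13, 95% interval -2.38 to -1.74, limma adjusted p = 0.00534). The call held under all 12 settings that used all 6 libraries, this fit among them, with limma adjusted p of at most 0.0498. With 1 library left out the log2 fold change stayed between -2.184 and -1.935. APLNR is on chromosome 11, minus strand, bases 57233577 to 57237314, and no other gene overlaps it in the annotation.

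The ligands of APLNR were measured in the same libraries. APLN, which encodes apelin, was at 1.36 and 2.75 FPKM in WT, at 24.7 and 12.2 in 1#, and at 10.1 and 16.1 in 2#, so every MSX2-/- library was above both WT libraries. Its log2 fold change was 2.42 (SE 0.37, limma adjusted p = 0.0393), the opposite direction to its receptor. APELA, which encodes the other ligand, ELABELA, and is expressed in pluripotent cells, was at 0.432 and 0.283 FPKM in WT, 5.26 and 1.39 in 1#, and 10.5 and 0.747 in 2#. Its MSX2-/- libraries were also all above WT but differed widely between replicates, and neither fit called it (adjusted p = 0.485 and 0.0855).

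EPHB4 is the receptor tyrosine kinase that marks veins. It was at 222 and 269 FPKM in WT, at 139 and 180 in 1#, and at 152 and 190 in 2#. The groups did not overlap, and in all 3 lines replicate 2 was above replicate 1. The mean was 245 ± 33.5 FPKM (SD, n = 2) in WT and 165 ± 23.9 (SD, n = 4) in MSX2-/-, and the pairs of the same number gave a level between 1.42-fold and 1.60-fold lower. EPHB4's log2 fold change of -0.57 (SE 0.16, 95% interval -0.96 to -0.19) did not pass without the replicate number (limma adjusted p = 0.207) and passed with it (SE 0.06, adjusted p = 0.00537). The change was smaller than that of APLNR, whose interval it did not overlap. EPHB4 is on chromosome 7, minus strand, bases 100802565 to 100827521, and SLC12A9 on the other strand overlaps it, at 24.1 to 29.4 FPKM.

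The ephrin-B genes did not move in 1 direction, while EFNB2, which encodes the ligand of EPHB4 named above, went the same way as EPHB4. EFNB2, which encodes ephrin-B2 and is itself an arterial marker, was at 223 and 140 FPKM in WT, 130 and 112 in 1#, and 131 and 105 in 2#, below both WT libraries in all 4. Its log2 fold change of -0.57 (SE 0.20), the same to 2 decimals as that of EPHB4, was called with the replicate number in the fit (adjusted p = 0.0208) but not without it (0.324). EFNB1, which encodes ephrin-B1, was at 4.37 and 6.49 FPKM in WT, 13.7 and 9.37 in 1#, and 12.6 and 9.76 in 2#. All 4 MSX2-/- libraries were above WT, with a log2 fold change of 0.95 (SE 0.22) that was called with the replicate number (adjusted p = 0.0389) and not without it (0.131). EFNB3, which encodes ephrin-B3, had a log2 fold change of -0.23 (adjusted p = 0.941). Of all 15 ligands and partners of the members that were listed, 12 were tested. APLN alone was called without the replicate number, APLN and EFNB1 higher and EFNB2 and RXRA lower with it, and the median log2 fold change was -0.05.

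EMCN encodes endomucin, a sialomucin on the surface of venous and capillary endothelium. It was at 29.1 and 52.1 FPKM in WT, at 23.3 and 31.8 in 1#, and at 34.4 and 24.8 in 2#. The WT libraries lay further apart than any MSX2-/- pair, and 2 of the 4 MSX2-/- libraries fell between them. The log2 fold change of -0.45 (SE 0.27) did not pass in either fit (limma adjusted p = 0.616 and 0.285), and leaving out WT replicate 1 or WT replicate 2 made it -0.86 or -0.05. EMCN is on chromosome 4, minus strand, bases 100395341 to 100880126. LINC01218 overlaps it on the same strand, at 0 to 4.01 FPKM, as do LINC01216, at 0 to 0.0720, and LINC01217, at 0.

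The lymphatic genes were low in both genotypes, and their summed level was between 3.30 and 3.88 FPKM in WT and between 4.70 and 5.55 in MSX2-/-. PROX1 encodes the homeobox factor that sets lymphatic fate and is also expressed in hepatocytes and cardiomyocytes. It was at 2.21 and 1.98 FPKM in WT, at 2.71 and 2.77 in 1#, and at 2.70 and 3.22 in 2#. Every MSX2-/- library was above both WT libraries, but the log2 fold change of 0.31 (SE 0.16, 95% interval -0.07 to 0.70) was not called (limma adjusted p = 0.540, and 0.193 with the replicate number). PROX1 is on chromosome 1, plus strand, bases 213983181 to 214041502. PROX1-AS1 on the other strand was at 1.18 FPKM in WT replicate 2 and at or below 0.0326 in the other 5 libraries. The 6 hepatocyte markers, with ALB and APOA1 among them, summed to between 42.6 and 76.8 FPKM in WT and between 11.9 and 241 in MSX2-/-, none of them called, and their part in the PROX1 values was not tested.

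LYVE1 is a hyaluronan receptor of lymphatic endothelium, also found on yolk sac endothelium and some macrophages. It was at 1.28 and 0.758 FPKM in WT, 0.409 and 0.673 in 1#, and 0.205 and 0.317 in 2#. All 4 MSX2-/- libraries were below both WT libraries, though 1# replicate 2 came near to WT replicate 2. A log2 fold change of -0.52 (SE 0.21) was not called in either fit (limma adjusted p = 0.406 and 0.180), and it was -1.20 with a pseudocount of 0.1. LYVE1 is on chromosome 11, minus strand, bases 10556966 to 10611689, inside a region that MRVI1 shares on the same strand, at 1.08 to 2.58 FPKM, and MRVI1-AS1 on the other, at 0 to 0.517. The 12 macrophage markers summed to between 86.0 and 87.3 FPKM in WT and between 68.1 and 87.5 in MSX2-/-. With the replicate number in the fit, TYROBP and FCER1G were called higher and MRC1 and AIF1 lower, and MRC1 is shared with lymphatic and sinusoidal endothelium. Over the 6 libraries CD14, CSF1R, CD163 and the complement genes C1QA, C1QB and C1QC stayed at or below 2.21 FPKM, with the complement genes listed at 0 in 2# replicate 2. LYZ was between 3.53 and 4.40, CD68 between 3.62 and 6.60 and above both WT libraries in all 4 MSX2-/- libraries, and AIF1 between 10.3 and 20.5, and the part of macrophages in the LYVE1 values was not tested.

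PDPN encodes podoplanin, a mucin-type glycoprotein of lymphatic endothelium that is also made by epithelial and mesenchymal cells. It was at 0.388 and 0.566 FPKM in WT, at 2.34 and 1.26 in 1#, and at 2.64 and 1.51 in 2#. All 4 MSX2-/- libraries were above both WT libraries, and in both clones replicate 1 was the higher. The mean was 0.477 ± 0.126 FPKM (SD, n = 2) in WT and 1.94 ± 0.660 (SD, n = 4) in MSX2-/-, and against WT of the same number the level was 6.03-fold and 6.80-fold higher in replicate 1 and 2.23-fold and 2.66-fold higher in replicate 2. Its log2 fold change of 0.97 (SE 0.25) did not pass without the replicate number (limma adjusted p = 0.166) and passed with it (adjusted p = 0.0362), but not when the filter was also left out (0.130). With a pseudocount of 0.1 the log2 fold change was 1.78. PDPN is on chromosome 1, plus strand, bases 13583465 to 13617957, with no overlapping gene. CLEC1B, which encodes its receptor CLEC-2 on platelets, was between 0.411 and 0.769 FPKM and was not called (log2 fold change -0.12, adjusted p = 0.901).

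Some markers of the other cells that make PDPN were also higher. Of the 8 epithelial and pluripotency markers, 6 were tested, and EPCAM, CDH1, KRT8 and KRT18 were called higher with the replicate number in the fit and none without it. Their summed level was between 142 and 165 FPKM in WT and between 206 and 390 in MSX2-/-. Of the pluripotency genes, DPPA4 was between 22.55 and 31.2 FPKM and above both WT libraries in all 4 MSX2-/- libraries, POU5F1 was between 0.869 and 5.33, NANOG did not pass 0.373, and SOX2 was listed at 0 in all 4 MSX2-/- libraries. Of the 12 mesenchymal markers, 9 were tested, and COL1A1 (log2 fold change 2.30, adjusted p = 0.0152), PDGFRB and ACTA2 were called higher with the replicate number, COL1A1 also without it. The mesenchymal sum overlapped, from 965 to 1290 FPKM in WT and from 1041 to 1218 in MSX2-/-. Levels within the list ran from THY1, at 603 to 978 FPKM, and COL1A2, at 130 to 156, over COL3A1, at 17.4 to 51.1, and TWIST1, at 7.57 to 20.5, to DCN, POSTN and TWIST2, under 1 FPKM throughout, and 3 of the 9 tested had a negative log2 fold change. The part of these cells in the PDPN values was not tested.

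STAB1, or stabilin-1, is a scavenger receptor of sinusoidal and lymphatic endothelium and of some macrophages. It was at 142 and 242 FPKM in WT, at 90.5 and 181 in 1#, and at 92.8 and 174 in 2#. Replicate 2 was far above replicate 1 in all 3 lines, and at each number both clones were below WT, while across numbers the groups overlapped. The log2 fold change of -0.53 had an SE of 0.38 without the replicate number (limma adjusted p = 0.698) and of 0.07 with it (adjusted p = 0.00741). Without the replicate number it was -0.92 when WT replicate 1 was left out and -0.15 when WT replicate 2 was. All 4 MSX2-/- libraries were below WT of the same number, as was the case for 21.4% of all genes. STAB1 is on chromosome 3, plus strand, bases 52495338 to 52524495. NT5DC2 on the other strand overlaps it and was between 177.5 and 250.5 FPKM, above STAB1 in every library but WT replicate 2. It was called higher with the replicate number in the fit (log2 fold change 0.33, adjusted p = 0.0266), the opposite direction to STAB1.

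STAB2, or stabilin-2, the hyaluronan scavenger receptor of liver and spleen sinusoids, was at 0.0421 and 0.0608 FPKM in WT, 0.0102 and 0.0297 in 1#, and 0.0331 and 0.0102 in 2#. All 4 MSX2-/- libraries were below both WT libraries at a level far below that needed for testing. In the fit without the filter its log2 fold change was -0.04 (limma adjusted p = 0.677). STAB2 is on chromosome 12, plus strand, bases 103587273 to 103766727, and AC025265.1 on the other strand overlaps it, at 0 to 0.1997 FPKM.

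The promoters of EPHB4 and STAB1 are shown because both genes were called lower with the replicate number in the fit and because each window, the 250 bases before the start of the gene, is free of GENCODE 29 exons of that gene. They come from RefSeq (GRCh38.p14) and are written 5′ to 3′ along the gene, with the letters TAAT or ATTA, the core that homeodomain proteins such as MSX2 recognise, in capitals. The EPHB4 window is chr7:100827524-100827773 on the minus strand and the STAB1 window is chr3:52495088-52495337 on the plus strand.
EPHB4: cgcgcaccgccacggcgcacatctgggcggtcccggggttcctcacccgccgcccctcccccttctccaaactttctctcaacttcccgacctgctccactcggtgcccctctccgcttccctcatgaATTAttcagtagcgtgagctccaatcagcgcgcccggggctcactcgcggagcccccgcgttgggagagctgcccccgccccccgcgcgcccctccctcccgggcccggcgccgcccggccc
STAB1: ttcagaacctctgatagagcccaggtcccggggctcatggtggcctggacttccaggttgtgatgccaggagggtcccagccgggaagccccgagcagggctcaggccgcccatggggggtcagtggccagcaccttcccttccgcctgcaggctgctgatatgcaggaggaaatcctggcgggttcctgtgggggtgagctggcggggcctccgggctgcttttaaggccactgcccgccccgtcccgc
The EPHB4 window holds 1 core, whose first base is 122 bases before the start, and the STAB1 window holds none. RefSeq listed 11 windows of 250 bases before a start for 7 of the 10 members (PDPN, STAB1, EMCN, NR2F1, EPHB4, STAB2 and NR2F2). Not all of them lie before the whole gene. All PDPN, EMCN and NR2F2 windows lie inside the gene as GENCODE 29 bounds it, as does the NR2F1 window at bases 93586849 to 93587098. Some PDPN windows also share bases. The core, searched as TAAT on both strands, was in 6 of the 11, beside 47.4% of the 35116 windows of all genes. The longer form TAATTG, also searched on both strands and overlapping the core, was in 0 of the 11, beside 6.7% of all. These matches are letters in a window and not sites of binding.

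Between the replicate numbers 3 of the 9 members were called, near the share of all genes, and between the clones no gene was called. Between replicates 2 and 1, with genotype in the fit, STAB1 was higher by 0.89 on the log2 scale (SE 0.06, limma adjusted p = 0.00098), EPHB4 by 0.33 (SE 0.06, adjusted p = 0.0104) and APLNR by 0.25 (SE 0.05, adjusted p = 0.0129). These are 3 of 9 members, beside 34.6% of all genes tested that were called between the replicate numbers and 15.7% of all genes tested that were called higher in replicate 2. The APLNR call was lost without 1# replicate 1 (adjusted p = 0.0518) and without 2# replicate 2 (0.0561). NR2F2 was lower in replicate 2 by a log2 value of -0.77 (SE 0.31), which was not called (adjusted p = 0.104). In size, by 95% intervals that did not overlap, the difference by replicate number was larger than that by genotype for STAB1 and smaller for APLNR and NR2F2, while for EPHB4 the intervals overlapped.

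**Figure D3:**
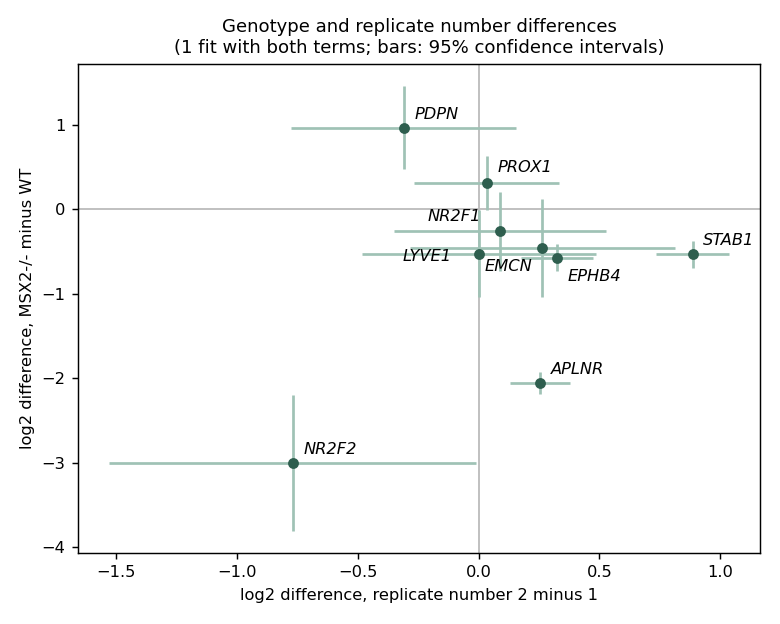
Log2 difference between replicate numbers 2 and 1 (horizontal) and between MSX2-/- and WT (vertical) for the 9 genes tested, from 1 fit with both terms, with 95% confidence intervals. STAB1 lies furthest to the right, APLNR and NR2F2 lie lowest, and PDPN lies highest.

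Whether the genotype difference itself changed with the replicate number was tested as an interaction, and limma called none of the 9 members. It called 3 of the 15875 genes, which is 0.0189%, and gave an unadjusted p under 0.05 for 1816. Among the members, PDPN alone had an unadjusted p under 0.05. Its difference between genotypes was smaller in replicate 2, by -0.73 on the log2 scale (95% interval -1.42 to -0.03, limma adjusted p = 0.426). The interaction was -1.09 for NR2F2 (95% interval -2.59 to 0.42) and 0.01 for APLNR (95% interval -0.23 to 0.25).

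Both clones differed from WT in the same members. In a fit of 3 groups with the replicate number, NR2F2, EPHB4, APLNR and STAB1 were called lower in 1# (adjusted p = 0.0233, 0.0224, 0.00197 and 0.0447) and in 2# (0.0274, 0.0301, 0.00209 and 0.0411). Lower calls took 1.17% of all genes in 1# and 1.15% in 2#, and calls in either direction 3.46% and 3.75%. The clones share the 2 WT libraries, so these are not independent comparisons. PDPN was not called in either clone (adjusted p = 0.133 and 0.0966). Without the replicate number limma called no member in either clone, and 0.0063% of all genes, 1 gene, in each, with 1172 and 1181 genes at an unadjusted p under 0.05. Between the clones limma called no gene, 0% of those tested, with 227 genes at an unadjusted p under 0.05 and no member among them. The 2# minus 1# log2 differences of the members ran from -0.29 in LYVE1 (95% interval -0.90 to 0.33) to 0.31 in NR2F2 (95% interval -1.11 to 1.72). For APLNR the interval was -0.42 to 0.46, and for NR2F2 it was too wide to show that the clones were alike.

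Other venous and lymphatic genes, from lists written with earlier results of these data known, changed in both directions. Of 13 other venous genes, 11 were tested and none was called without the replicate number, and their median log2 fold change was -0.20. With it, VWF, the von Willebrand factor, was lower (log2 fold change -0.58, adjusted p = 0.0129), TEK, the angiopoietin receptor, was lower (-0.84, adjusted p = 0.0169), and SELE, E-selectin of activated venules, was higher (1.71, adjusted p = 0.0172). Of 20 other lymphatic genes, 17 were tested and their median was -0.03. Without the replicate number, 3 were called lower and 2 higher. CLDN5, the claudin of endothelial tight junctions, fell from 106 ± 13.8 FPKM (SD, n = 2) to 21.3 ± 4.86 (SD, n = 4), a log2 fold change of -2.28 (adjusted p = 0.012). MMRN1, the multimerin of lymphatic endothelium and platelets, had a log2 fold change of -1.79 (adjusted p = 0.0301), and TIE1, an endothelial receptor kinase, of -0.58 (adjusted p = 0.0381). NTS, the neuropeptide neurotensin, had one of 2.46 (adjusted p = 0.0306), and GATA2, a factor of lymphatic valves and of blood progenitors, one of 1.28 (adjusted p = 0.0152). MRC1, the mannose receptor, was lower with the replicate number (-1.38, adjusted p = 0.00733) and did not pass without it (0.0836). VEGFC, VEGFD and CCBE1, which drive lymphatic growth, were under 1 FPKM in every library and were not tested.

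Arterial genes also changed in both directions. Of 17 listed, 16 were tested, and their median log2 fold change was -0.14. HEY2, a NOTCH target that opposes venous fate, was at 30.6 and 27.5 FPKM in WT, 63.9 and 64.1 in 1#, and 54.7 and 66.0 in 2#, above both WT libraries in all 4 (log2 fold change 1.07, limma adjusted p = 0.018). JAG1, a NOTCH ligand, was higher (0.84, adjusted p = 0.0478), and MECOM, a transcription factor of arterial and hemogenic endothelium, was lower (-1.06, adjusted p = 0.0292). With the replicate number the calls were 3 higher and 4 lower, among them GJA4, the gap junction connexin 37 (-0.71, adjusted p = 0.0322), and EFNB2. DLL4, another NOTCH ligand, was also lower in that fit (-0.37, limma adjusted p = 0.0125) and was not called without the replicate number (0.806). NOTCH1, NOTCH4 and HEY1 had log2 fold changes of -0.22, -0.36 and -0.06 and were not called in either fit.

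Pan-endothelial and hematopoietic markers were examined in the same fits. Of 16 pan-endothelial markers, all were tested, 3 were called lower (CDH5, TIE1 and CLDN5) and none higher, and the median log2 fold change was -0.36. With the replicate number, 7 were lower and 1, ENG, was higher (log2 fold change 0.70, adjusted p = 0.00973). The lists share genes, so their counts are not separate results. TIE1, CLDN5 and ECSCR are also on the lymphatic list and TEK is on the venous list, and the member EMCN is among the 16. CDH5, VE-cadherin, had a log2 fold change of -0.65 (adjusted p = 0.0453) and PECAM1 one of -0.19 (adjusted p = 0.663). The 95% intervals of APLNR (-2.38 to -1.74) and NR2F2 (-4.10 to -1.90) lay below those of CDH5 and PECAM1 and overlapped that of CLDN5 (-2.78 to -1.78). The intervals of the other members with a negative log2 fold change overlapped that of CDH5 (-0.90 to -0.40). Those members were EPHB4 (-0.96 to -0.19), STAB1 (-1.43 to 0.36), EMCN (-1.10 to 0.19), LYVE1 and NR2F1. Of 16 hematopoietic markers, 14 were tested, 4 were called higher and none lower, with a median of 1.16, and 9 were higher with the replicate number. GYPB, a red cell surface protein, had a log2 fold change of 1.60 (adjusted p = 0.00998), and KLF1, the erythroid factor, had one of 1.85 (adjusted p = 0.0393). RUNX1, which the transition to blood requires, was higher with the replicate number (1.25, adjusted p = 0.00162) and did not pass without it (0.284). The hematopoietic sum was between 162 and 195 FPKM in WT and between 380 and 491 in MSX2-/-, PTPRC being at or near 0. Of 6 cardiomyocyte markers, 5 were tested and MYL7 and NKX2-5 were higher with the replicate number and none without it, and their sum was between 32.2 and 42.5 FPKM in WT and between 56.1 and 90.1 in MSX2-/-. The part of these markers in the values of the venous and lymphatic genes was not tested.

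Across the 6 libraries, the gene nearest to each member by Pearson correlation of log2(FPKM + 1) was sought only among the listed genes, many of them endothelial. It was CLDN5 for NR2F2 (r = 0.975), VWF for APLNR (0.977), ERG for STAB1 (0.986), MMRN2 for EMCN (0.898) and GJA4 for LYVE1 (0.899). It was AIF1 for EPHB4 (0.991), CLEC1B for NR2F1 (0.926), EFNB1 for PDPN (0.969) and GATA2 for PROX1 (0.947). Within the members, APLNR lay nearest to EPHB4 (0.908) and to NR2F2 (0.895), and PDPN and PROX1 lay nearest to each other (0.689). Only the highest positive r was sought. Inverse values among the members reached -0.937 for PROX1 with NR2F2 and -0.918 for PDPN with APLNR, larger in size than 0.689. The 6 points share 2 genotypes and 2 replicate numbers, so these values describe the libraries and carry no p-value.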

How the data were processed

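RNA-seq was made of CD31+ cells from H1 differentiation cultures at day 8. The authors deposited 1 table of FPKM values per gene symbol and library, without read counts or pooling. The labels name TopHat with Cufflinks and BWA with ANOVA, and the submitters' processing notes list BWA, Bowtie, RSEM and hg19, while 97.0% of the symbols are in GENCODE 29, an annotation of GRCh38. Build, annotation and use of strand are therefore open. Clones are named as in the columns, since the labels number them otherwise.

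Of the rows, 58364 held values and 1 was left out, and for 342 symbols on several rows the one with the highest mean was used. limma (version 3.58.1, R 4.3.3), with a mean-variance trend, was fitted to log2(FPKM + 1), with Benjamini-Hochberg adjustment over all 15875 genes tested. It was tested on simulated data. The difference between replicates 2 and 1, across genes, which are not independent replicates, correlated between WT and 1# (r = 0.509), WT and 2# (r = 0.54) and 1# and 2# (r = 0.638), so the numbers were taken as pairs. An exact permutation test of 4 libraries against 2 cannot go below p = 0.0667 and was not used. Alternatives were a pseudocount of 0.1, no filter or a mean of at least 2 FPKM, 3 scalings, no trend, 3 groups, summed rows and leaving out each library.

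The members and gene lists were chosen with earlier results of these data known. All members were named, with up to 4 called genes of each other list by size of change, and the ligands, partners, overlapping and nearest genes. TIE1, GATA2, PECAM1, PTPRC, SPN, DLL4, NOTCH1, NOTCH4, HEY1 and other genes named for their low level or as defining markers were picked after their values were seen. A withheld result of a single gene is not reported here.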

Additional observations from a re-analysis of the deposited data

Results flagged for a closer look

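Among 62 genes checked, the level of 2 in the 4 MSX2-/- libraries had 1 library far from the other 3. Chance gives this in about 1 of 20 groups of 4 independent, normally distributed values. These libraries share clones and replicate numbers, so that rate need not hold for them. PROX1 was at 3.22 FPKM in 2# replicate 2 and between 2.70 and 2.77 in the others, a gap of 0.871 of the range. MYL7, a cardiomyocyte marker, was at 8.94 FPKM in 2# replicate 1 and between 2.13 and 3.28 in the others, a gap of 0.832 of the range.

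ZFPM2, the cofactor of NR2F2, was below WT in both MSX2-/- libraries of replicate 1 and above WT in both of replicate 2, and the log2 difference between MSX2-/- and WT was larger by 0.41 in replicate 2. The interaction did not pass (limma adjusted p = 0.546). SOX18, a factor that acts before PROX1 in lymphatic fate, had the same pattern with a difference of 0.192 (limma adjusted p = 0.616). NR2F1-AS1, the antisense gene of NR2F1, was above WT in both libraries of 1# and below WT in both of 2#, with a 2# minus 1# log2 difference of -0.561 (limma adjusted p = 1).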

How the results depend on the processing

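The lower level of APLNR kept its direction and its call in MSX2-/- against WT under every setting run. The count of genes called there was 204, and it was 1575 with the replicate number as a block, 127 without the filter, 6 with 3 groups and 510 with the block and no filter, an alternative chosen after the data were seen. Leaving out 1 library gave between 11 and 76, with fewer samples in the fit. The share of called genes that were higher was 75% and became 62% with the block and 51.2% without the filter, and lower calls outnumbered higher ones without WT replicate 1, where 38.7% were higher, while no scaling moved the median of all genes by over 0.1. The count of members called was 2, and it was 5 with the block, 1 with a pseudocount of 0.1, 1 without the filter, 1 with 3 groups, 1 without the trend, and 1 to 2 with a library left out. For NR2F2 the other settings that lost the call had adjusted p from 0.0505 to 0.119. For 1# against WT, 1 gene was called, and 0 with a pseudocount of 0.1, 550 genes and 4 members with the replicate block, and 0 to 1 genes with a library left out. For 2# against WT, 1 gene was called, and 4 with a pseudocount of 0.1, 596 genes and 4 members with the replicate block, and 0 to 1 with a library left out. Between the clones 0 genes were called, 1 with a pseudocount of 0.1, and 0 to 2 with a library left out. Between replicate numbers 5491 genes were called, and 3090 to 4713 with a library left out. For the interaction 3 genes were called, 0 with a pseudocount of 0.1 and 0 with any MSX2-/- library left out, and it cannot be estimated without a WT library. Other than with the counts and calls printed here and in the results, the block changed no call of a member. The cause of these shifts was not tested.

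With a library left out, the sign of small log2 differences that were not called changed. The range was -0.216 to 0.249 for NR2F1, -0.0853 to 0.288 for EPHB4, -0.11 to 0.156 for APLNR, -0.132 to 0.325 for EMCN, -0.145 to 0.419 for PDPN, -0.504 to 0.487 for STAB1, -0.553 to 1.16 for NR2F2 and -0.0147 to 0.174 for PROX1 between the clones. It was -0.816 to 0.00294 for EMCN in 2# against WT, and -0.00874 to 0.0239 for the interaction of APLNR. Between the replicate numbers it was -0.0137 to 0.498 for EMCN, -0.0247 to 0.243 for NR2F1, -0.152 to 0.188 for LYVE1 and -0.0339 to 0.105 for PROX1.

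WT has 2 libraries, so each of them bears on every comparison with WT. Read numbers are unknown, so how much of the spread of NR2F1, LYVE1, PDPN and STAB2, all near or under 1 FPKM, comes from counting cannot be given.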
